A study of Caenorhabditis elegans with 2 samples.

Results

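The large subunit of the cytosolic ribosome is encoded in Caenorhabditis elegans by genes named rpl- and rla-, and MADF-3 binding was described at all 50 protein-coding genes with these names, out of 19973 on the nuclear chromosomes of the Ensembl annotation. Members were taken by name, and the group itself was chosen with earlier results of these data known. Each was scored for summits of the series-wide thresholded peak list within 500 bp of its annotated 5' end (a promoter peak), and by the ranked list of candidate peaks where no such summit lay. Binding was measured by ChIP-seq, in which DNA bound to a protein is pulled down and sequenced, in whole young adults of strain RW12241 collected at 63 hours after synchronisation as starved L1 larvae. Both samples carried the same allele, st12241[madf-3::TY1::EGFP::3xFLAG] II, a CRISPR insertion of tags at madf-3 itself, and an anti-GFP antibody was used. The 2 samples are labelled as biological replicates of 1 group, so no treatment or genotype was compared. Whole animals mix all tissues, and control libraries were not used here.

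The ribosome joins amino acids into proteins. Its large subunit holds the peptidyl transferase centre, made of RNA, the tunnel through which the new chain leaves, and a stalk that recruits translation factors. The large-subunit proteins fold and brace the ribosomal RNA, and they are needed in nearly equal amounts, so their genes are among the most highly transcribed in growing cells. MADF-3 is a nematode protein with a MADF domain, a DNA-binding fold related to Myb. Many worm transcripts are trans-spliced, so an annotated 5' end can lie downstream of the place where the RNA starts.

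The DNA under the summits of the 5 strongest members is shown first, with that of rpl-23 added, because short words recurred in several of them. Of the 12 strongest members, rpl-35, rpl-12, rpl-43 and rpl-36 had none of these words within 100 bp of the summit. Each window is 101 bp of build ce11 centred on the summit, written 5' to 3' on the gene's own strand, from the RefSeq sequence of the WBcel235 assembly. Capitals mark matches on either strand to CGAGTGT or to ACCGTA or to GGGTCTC or to CTGAGTAT, words chosen after the member sequences were seen. The windows of rpl-3, rpl-15 and rpl-20 hold both of the first 2 words, those of rpl-7A and rpl-23 hold the last, and that of rpl-35 holds none.
rpl-3 (chrIII:3867521-3867621, plus strand): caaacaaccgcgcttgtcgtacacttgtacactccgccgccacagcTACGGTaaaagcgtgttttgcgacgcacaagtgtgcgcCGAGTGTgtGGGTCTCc
rpl-15 (chrIV:654879-654979, minus strand): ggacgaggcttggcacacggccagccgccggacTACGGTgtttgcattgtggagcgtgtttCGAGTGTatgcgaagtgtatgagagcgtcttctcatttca
rpl-35 (chrIII:7854640-7854740, plus strand): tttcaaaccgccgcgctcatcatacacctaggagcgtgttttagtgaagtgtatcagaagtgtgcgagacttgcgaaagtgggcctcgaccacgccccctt
rpl-20 (chrIV:4750016-4750116, minus strand): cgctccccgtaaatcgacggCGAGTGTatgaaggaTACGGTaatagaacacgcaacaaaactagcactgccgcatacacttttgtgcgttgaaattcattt
rpl-7A (chrIV:4390619-4390719, minus strand): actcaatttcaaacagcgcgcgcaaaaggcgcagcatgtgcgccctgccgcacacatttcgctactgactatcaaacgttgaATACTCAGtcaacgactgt
rpl-23 (chrIII:5706370-5706470, minus strand): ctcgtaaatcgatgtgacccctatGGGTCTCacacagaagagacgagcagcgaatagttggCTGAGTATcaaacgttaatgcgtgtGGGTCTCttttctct

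In 6 weaker member peaks the first 2 words stood in a fixed arrangement, with CGAGTGT followed after 1 base by ACCGTA, on the gene's own strand in each. They are those of rpl-24.1 and of the 5 genes aligned below on the first word, with the same build and source, where capitals mark both words. These 5 genes lie on 4 chromosomes.
rpl-21 (chrIII:8130509-8130541, minus strand): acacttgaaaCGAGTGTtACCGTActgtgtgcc
rpl-6 (chrIII:7208066-7208098, plus strand): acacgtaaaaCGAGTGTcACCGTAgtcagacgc
rpl-29 (chrIV:13881969-13882001, plus strand): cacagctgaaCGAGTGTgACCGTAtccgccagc
rpl-22 (chrII:5055376-5055408, plus strand): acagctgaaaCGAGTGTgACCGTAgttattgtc
rpl-11.2 (chrX:2242951-2242983, minus strand): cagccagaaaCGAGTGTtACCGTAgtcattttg

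MADF-3 had a promoter peak at 29 of the 50 large-subunit genes (58%), where 6.26% of all protein-coding genes had one. The 29 genes carried 35 peaks in all. Besides rpl-3, rpl-15, rpl-35, rpl-20, rpl-7A, rpl-7, rpl-12, rpl-24.2, rpl-43, rpl-41.2, rpl-21 and rpl-36, which had the 12 strongest, they were rpl-23, rpl-27, rpl-6, rla-1, rpl-29, rpl-39, rpl-22, rpl-14, rpl-11.2, rpl-24.1, rpl-9, rpl-31, rpl-38, rpl-5, rpl-18, rpl-30 and rpl-32. The count was 29 in the conservative list as well, against 6.14% of all genes, although rpl-18 and rpl-32 left it and rpl-1 and rpl-16 entered. With peaks assigned by any overlap of the peak with the window, or with the 5' end of any transcript, it was again 29, against 6.83% and 6.85% of all genes. With each peak given to its nearest gene only, it was 24, against 5.21%.

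The members' peaks tended to be strong ones within their list. Among the 1370 stronger of the 2741 peaks, 25 members kept a promoter peak, against 4% of all genes. Of the 35 member peaks, 26 were among these 1370, and the median rank was 596 of 2741. The median signal over the whole list was 73.1. Among the 50 strongest peaks of the list were 4 member peaks, among the 100 strongest 6 and among the 500 strongest 15. Many other promoter peaks stood at these ranks too, and their share was not counted. The median signal of the 35 member peaks, the authors' own strength per peak, was 101 (95% interval of the median 78.2 to 133, counting peaks only), against 79.7 (77.7 to 82.3) for the 1047 other promoter peaks. Upstream of the gene the medians were 127 for members and 87.7 for others, while downstream members were lower, with 68.5 against 71.7. The signal's scaling is unknown here, and no list gives read counts, so the depth behind a peak is unknown.

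**Figure D1:**
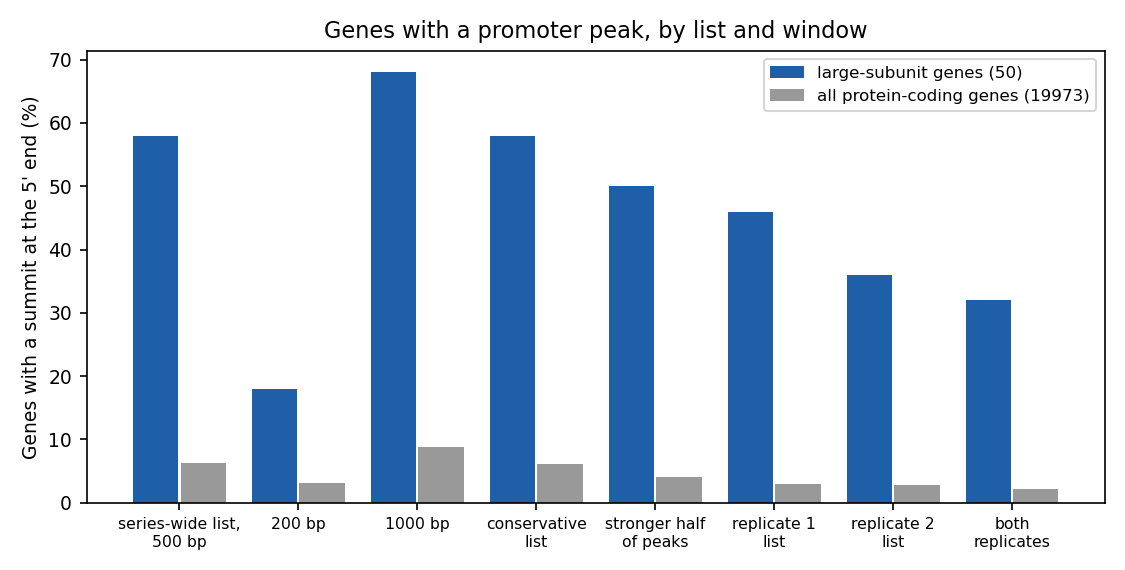
Share of genes (%, vertical axis from 0) with a summit at the 5' end, for the 50 large-subunit genes and for all 19973 protein-coding genes, in different peak lists and windows (500 bp where none is named). The members' share is above that of all genes in each of the 8 settings, from 18% within 200 bp to 68% within 1000 bp.

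Of the 4 genes for proteins near the catalytic centre, 1 had a promoter peak, against 58% of the members and 6.26% of all genes. The roles used here hold 1 to 8 genes each and were chosen with earlier results known. Differences between roles were not tested. rpl-3 (WBGene00004414), which reaches toward the peptidyl transferase centre, had the strongest peak of the group, with a summit at -283 bp. Its series-wide signal was 899, the 17th of the list, and the replicates' own lists gave 482 and 424 (453 ± 41.1, SD, n = 2). The other genes of this region had no promoter peak in the thresholded list, namely rpl-2, a binder of the RNA around that centre, rpl-4, which lines the exit tunnel, and rpl-10, which joins the subunit late in assembly. Their highest candidate peaks had signals of 41.8, 39.4 and 38.6 in the ranked list.

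Strong peaks also stood at rpl-15, rpl-20, rpl-7A and rpl-7, whose proteins bind and brace the large ribosomal RNA away from that centre. At rpl-15 (WBGene00004427) the summit lay at -353 bp with a signal of 629, and the replicates gave 308 and 317 (312 ± 6.32, SD, n = 2). At rpl-20 (WBGene00004432) it lay at -288 bp with a signal of 526, and 266 and 268 in the replicates (267 ± 1.75, SD, n = 2). At both genes the replicates were nearly equal, closer than at rpl-3. rpl-7A had its summit at -79 bp with a signal of 354, and 191 and 172 in the replicates (182 ± 13.5, SD, n = 2). rpl-7 had its summit at -320 bp with a signal of 303, and 164 and 138 in the replicates (151 ± 18.4, SD, n = 2). The 5 strongest members had no replicate value below 172, and no promoter peak outside those of the 12 strongest members had one above 67.7.

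Around the mouth of the exit tunnel, where new chains meet chaperones and targeting factors, 3 of 8 genes had a promoter peak. The share was 58% over the members and 6.26% over all genes. rpl-35 (WBGene00004449), a docking site for those factors, was far above the others, with a signal of 604 at -444 bp and 328 and 278 in the replicates (303 ± 35.3, SD, n = 2). rpl-39, which lines the end of the tunnel, had a signal of 101 at -287 bp, and rpl-31 had 78.2 at +238 bp inside its own intron. The remaining genes were rpl-17, rpl-19, rpl-25.1, rpl-25.2 and rpl-26, none with a promoter peak. Their candidate peaks were at most 43.8, and rpl-26 had none in the window in the series-wide ranked list.

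Of the 4 genes for the stalk that recruits elongation factors, 2 had a promoter peak, against 58% of the members and 6.26% of all genes. rpl-12, whose protein forms the base of the stalk, had a summit at -26 bp, the closest of all members to a 5' end. Its signal was 263, with 156 and 115 in the replicates (135 ± 28.6, SD, n = 2), and a second, weaker peak of 75.9 lay in its coding sequence at +379 bp. rla-1, an acidic protein of the stalk's tip, had a signal of 105 with the summit in its coding sequence at +110 bp, and 64.8 and 40.7 in the replicates (52.8 ± 17.1, SD, n = 2). rla-0, which anchors the acidic proteins to the base, had a candidate peak of 50.6 at -205 bp that was not in the thresholded list, and rla-2, the partner of rla-1, had none in the window. The lone gene of the other mobile stalk, rpl-1, which helps release spent transfer RNA, was called in some lists and not in others. Replicate 1's own thresholded list had a promoter peak there, and that of replicate 2 had none. In the series-wide ranked list rpl-1 had a candidate peak of 114 at -387 bp, with a score of 306, where the lowest score in the thresholded list was 830. This candidate peak is in the conservative list and above the median of the called member peaks, but not in the series-wide thresholded list. Its −log10 IDR in the ranked list was 0.739, on a scale the authors capped at 5.

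The 5S RNA particle, which rpl-5 and the rpl-11 proteins form before joining the subunit, had promoter peaks at 2 of 3 genes. The share was 58% over the members and 6.26% over all genes, and neither gene was among the 12 strongest. rpl-5 had 1 summit at -399 bp with a signal of 68.4 and 1 at +159 bp with 60.7. The replicates gave 50.2 and 24.8 at the first of these, the widest relative gap among the member peaks seen in both replicates. rpl-11.2, on X, had a signal of 90.3 at -367 bp, with 49.4 and 42.2 in the replicates (45.8 ± 5.07, SD, n = 2), but reached neither replicate's own thresholded list.

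The other members among the 12 strongest were a mixed group. rpl-24.2, whose human counterpart RSL24D1 acts in ribosome assembly, had a signal of 246 at -161 bp, and 139 and 114 in the replicates (126 ± 17.5, SD, n = 2). Its summit was the only upstream one inside a gene, an intron of C03D6.1. rpl-43 had a signal of 178 at +464 bp (86.9 ± 10.1 over the replicates, SD, n = 2), past the end of the short gene and -10 bp from the 5' end of xrn-2, a nuclear exonuclease. A peak of 919, stronger than any counted here, lay at -745 bp from rpl-43 and outside the window. The values at rpl-41.2, a tiny protein at the interface of the subunits, were 146 at -260 bp (68.7 ± 15.9, SD, n = 2). rpl-21 had 142 at -336 bp (71.6 ± 12.8, SD, n = 2) and rpl-36 had 133 at -408 bp (62.1 ± 9.33, SD, n = 2).

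The 12 remaining members with a promoter peak, apart from those placed by role, had series-wide signals between 53.6 and 122. Upstream summits led this group, with 122 at -293 bp for rpl-23, 114 at -358 bp for rpl-6 and 102 at -267 bp for rpl-29. rpl-22 had 98.0 at -276 bp, rpl-14 had 93.0 at -316 bp and rpl-24.1 had 84.6, also at -276 bp. rpl-9 had 84.2 at -255 bp and rpl-38 had 76.9 at -348 bp, so these 8 summits fell within about 100 bp of each other. Downstream summits stood at rpl-27, with 116 at +92 bp in its coding sequence, and were weaker at rpl-18, rpl-30 and rpl-32, with 66.1, 63.3 and 53.6. These last 3 were in neither replicate's own thresholded list.

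**Figure D2:**
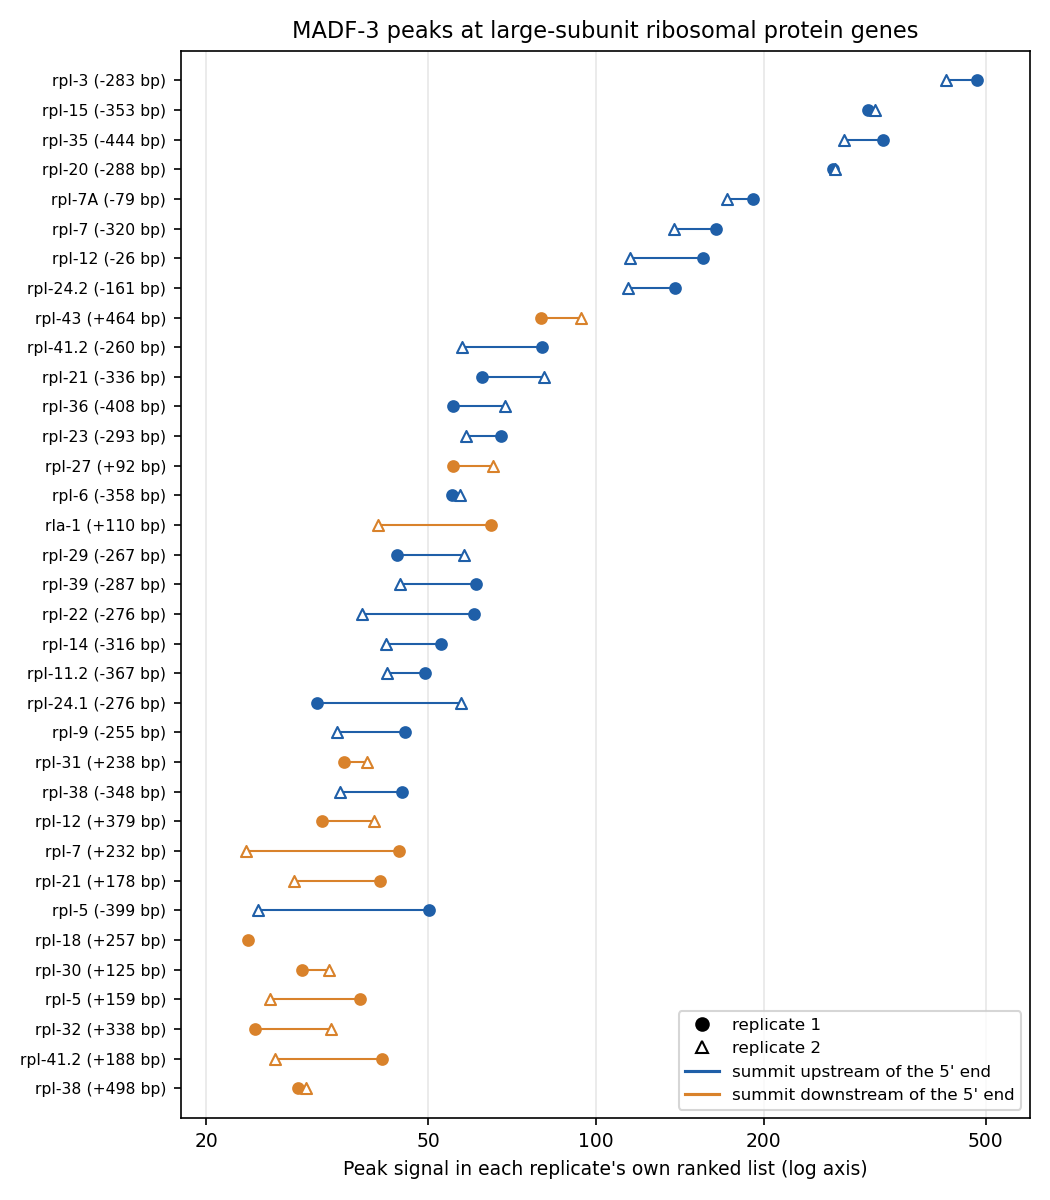
Signal of each of the 35 member peaks in each replicate's own ranked list (horizontal log axis, no unit), in order of series-wide signal, with the summit's distance from the 5' end in brackets; a line joins the replicates. The 8 strongest peaks lie upstream and stand apart on the right in both replicates, while the downstream summits reach 94.0 at most.

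The replicates gave near values at most member peaks. Of 35 peaks, 34 had a signal in both, the exception being rpl-18, and 33 of the 34 were within 2-fold and 28 within 1.5-fold. Replicate 1 was higher in 20 of 34, with a median log2 ratio of replicate 1 over replicate 2 of 0.22, against 0.03 at other promoter peaks. Summits of the replicates were a median of 10 bp apart and at most 25 bp apart at the 12 strongest peaks, while the widest gap was 85 bp, at rpl-11.2. Across the 34 peaks, Spearman's rho was 0.824 and Pearson's r of log2 signal 0.930, given as a description of peaks that share libraries and were selected by signal.

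Counted in each replicate's own thresholded list, 23 members had a promoter peak in replicate 1, against 3.02% of all genes, and 18 in replicate 2, against 2.85%. In both lists there were 16 members, against 2.13% of all genes. These 16 are 69.6% of the members found in replicate 1 and 88.9% of those in replicate 2. They include each of the 12 strongest members. Another 5 of the 29 members reached the series-wide list without reaching either replicate's own.

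Member summits lay mostly upstream of the gene, and farther from its 5' end than other promoter summits. Of the 35 peaks, 22 were upstream (62.9%, exact Clopper-Pearson 95% interval 44.9 to 78.5%), against 717 of 1047 other promoter peaks (68.5%, 65.6 to 71.3%). Between -400 and -201 bp lay 17 of the 35 (48.6%), against 26.5% of other promoter peaks, and between -200 and -1 bp only 3 (8.57%), against 34.7%. Members were measured from their own 5' end and other peaks from the nearest gene. Measured from the nearest gene of any kind, 16 member peaks (45.7%) lay between -400 and -201 bp, and 6 (17.1%) lay between -200 and -1 bp. The annotated 5' end stood within 20 bp of the start codon at 39 of 50 members, so the distances are close to distances from the coding sequence. Within 200 bp of the 5' end, 9 members had a peak, against 3.15% of all genes, and within 1000 bp 34 had one, against 8.76%.

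**Figure D3:**
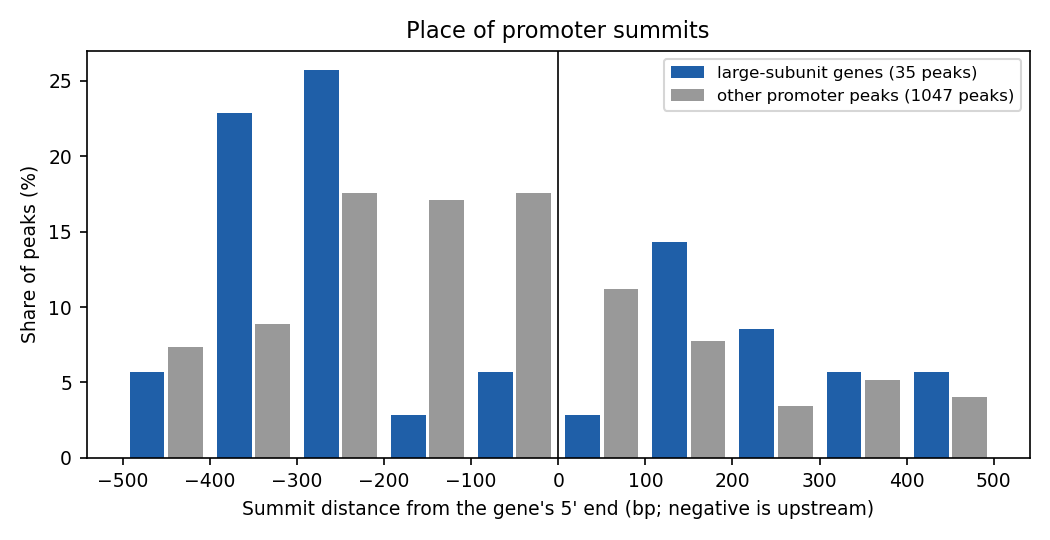
Share of peaks (%) by the summit's distance from the 5' end in 100 bp bins, for the 35 peaks at large-subunit genes, measured from the member gene, and for 1047 other promoter peaks, measured from the nearest gene. The members' tallest bars lie between -400 and -201 bp, which hold 48.6% of their peaks and 26.5% of the others.

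Upstream and downstream summits differed in strength and place. The 22 upstream ones had a median position of -290.5 bp and a median signal of 127 (range 68.4 to 899), and 21 of them were intergenic. Other upstream promoter summits had medians of -197 bp and 87.7. The 13 downstream ones had a median position of +232 bp and a median signal of 68.5 (range 46.8 to 178), against +157.5 bp and 71.7 for other downstream promoter summits. Of these 8 were in coding sequence, 2 in untranslated exons, 2 in introns and 1, that of rpl-43, between genes. At 6 of the 29 members there was more than 1 promoter peak, namely rpl-7, rpl-12, rpl-41.2, rpl-21, rpl-38 and rpl-5, compared with 49 of 1222 other genes with a peak (4.01%). Each of these 6 had its strongest peak upstream and a weaker one downstream. The downstream peaks of rpl-41.2 and rpl-38 were also within 200 bp of the gene's 3' end. Members had a median length of 753.5 bp against 2031 bp for other genes, so a 500 bp window can take in the 3' ends of short members. The part of gene length in this contrast was not tested.

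MADF-3 summits also stood just past the 3' ends of these genes, which was seen on the map of summits and then counted. Of the 50 members, 33 (66%) had a thresholded summit within 200 bp of the annotated 3' end, against 662 of 19923 other protein-coding genes (3.32%) and 3.48% of all genes. The 34 summits lay a median of 125.5 bp past the 3' end, 28 of them between 50 and 200 bp past it. Their median signal was 93.3 (range 46.8 to 200). Other genes' summits in the same window had a median place of +102 bp and a median signal of 76.3.

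The strongest 3' summit was at rpl-27, at +174 bp, with a signal of 200 and 74.3 and 122 in the replicates (98.1 ± 33.7, SD, n = 2). At rpl-15 it was 178 at +117 bp, with 81.4 and 95.2 in the replicates (88.3 ± 9.80, SD, n = 2). At rpl-3 it was 147 at +52 bp, with 75.1 and 75.4 in the replicates (75.3 ± 0.181, SD, n = 2), so the group's strongest promoter also had a peak at the far end of its gene. Over the 33 such peaks with a signal in both replicates, 32 were within 2-fold. Members without a promoter peak had 3' summits too, the strongest at rpl-26 with 132, rpl-2 with 125 and rpl-4 with 122. The 3' summits named for rpl-27, rpl-15 and rpl-26 also lay within 500 bp of the 5' end of another protein-coding gene. The neighbours were egl-30 and C53H9.4 at rpl-27, K11H12.1 at rpl-15 and suf-1 at rpl-26. No such neighbour stood at the 3' summits of rpl-3, rpl-2 and rpl-4. Which gene a shared summit belongs to was not tested.

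Several values bear on how the 3' summits are read. Worm genes are dense, and 19 of the 34 summits were also within 500 bp of the 5' end of another protein-coding gene, while 3 were already counted as promoter peaks of their own gene. Away from every protein-coding 5' end, 13 members (26%) had a 3' summit, against 425 other genes (2.13%). Members were short, with a median length of 753.5 bp against 2031 bp for other genes. Of members with a promoter peak, 24 of 29 (82.8%) had a 3' summit and of those without, 9 of 21 (42.9%), while among other genes these shares were 17.8% and 2.38%. The same summit can enter both counts. At rpl-43 the only promoter peak was also the 3' summit, and at rpl-38 the only 3' summit was also a promoter peak. The shares were not computed without such summits. The part that transcription level or gene spacing plays in these counts was not tested. At either end, 38 of 50 members (76%) had a summit, against 8.37% of other genes. The 12 with one at neither end were rla-0, rla-2, rpl-11.1, rpl-16, rpl-25.1, rpl-25.2, rpl-28, rpl-33, rpl-34, rpl-37, rpl-41.1 and rpl-42.

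**Figure D4:**
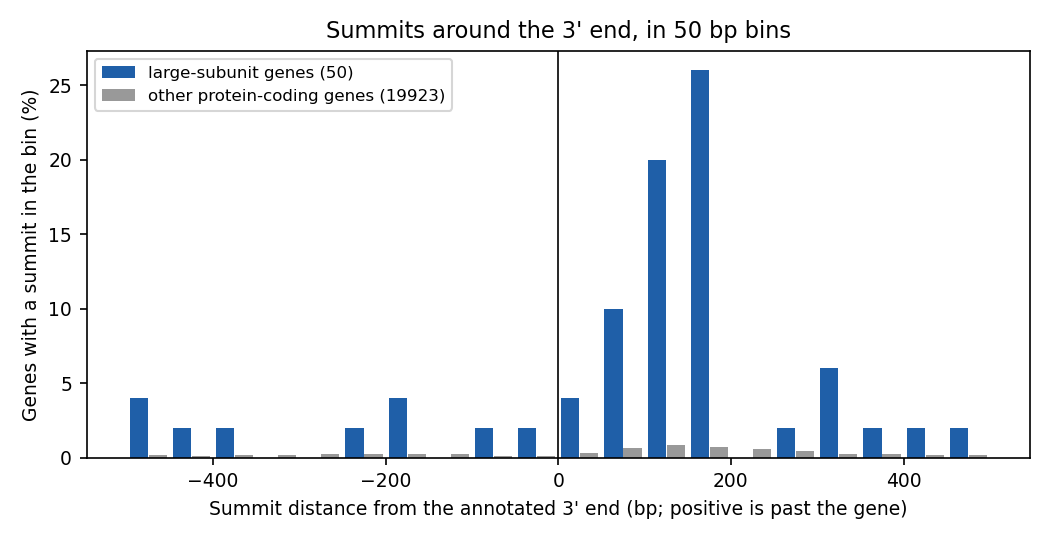
Share of genes (%) with a thresholded summit in each 50 bp bin around the annotated 3' end, for the 50 large-subunit genes and 19923 other protein-coding genes. The members' bars are tallest between 50 and 200 bp past the gene, with 10%, 20% and 26% in the 3 bins there, and those of other genes reach 0.863% at most.

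**Figure D5:**
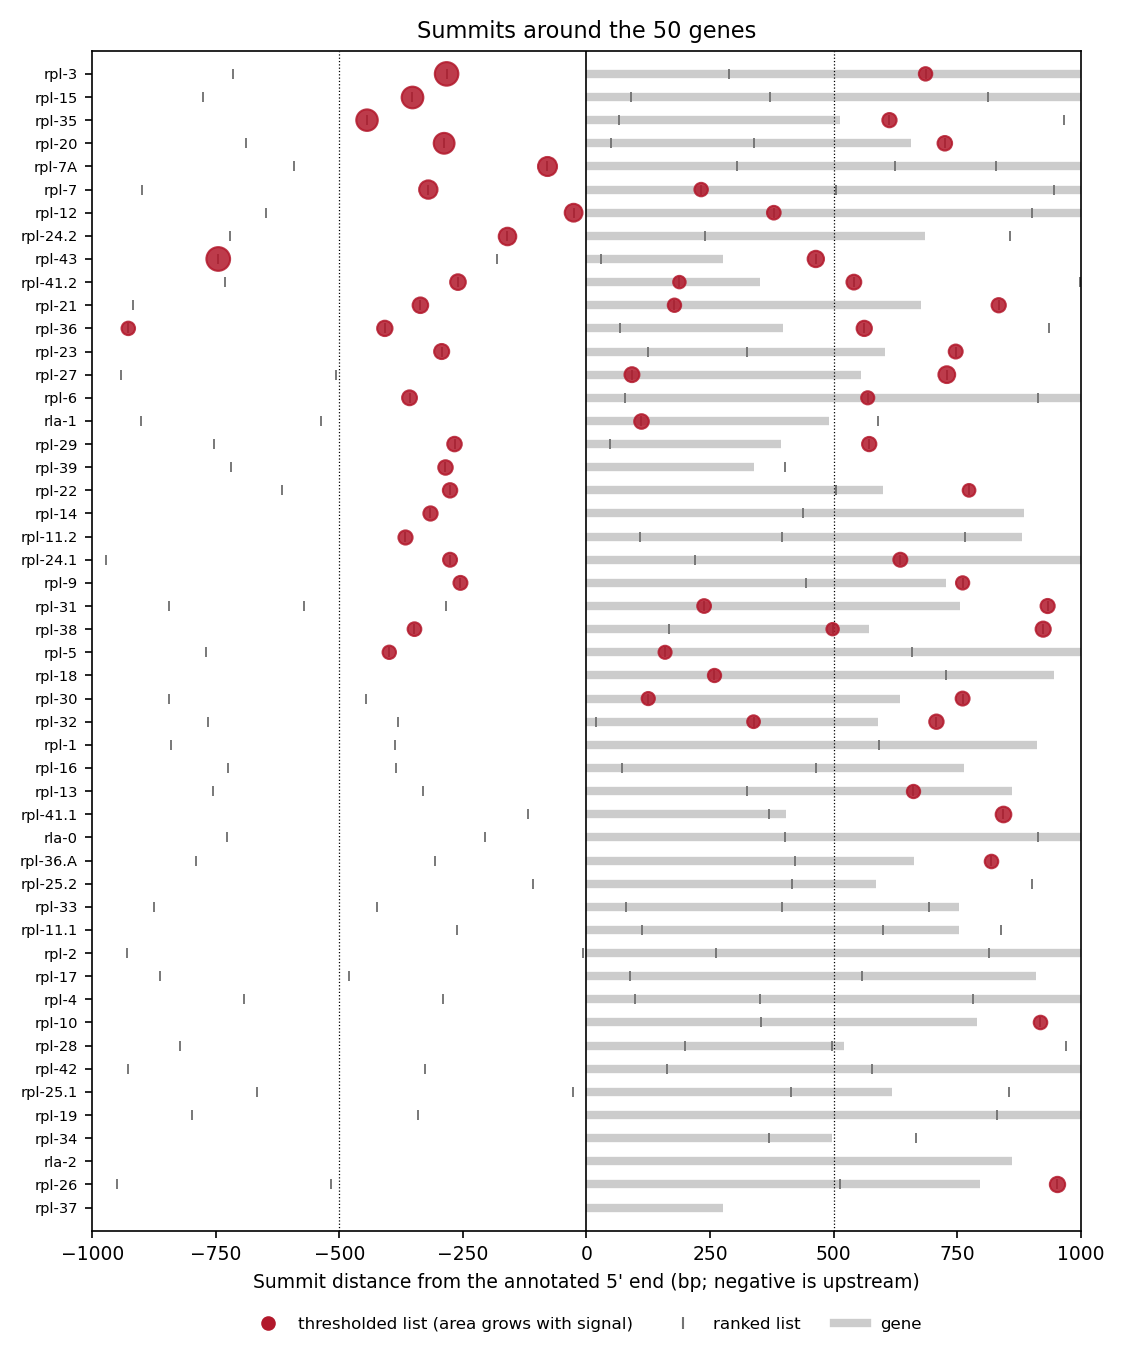
Summits within 1000 bp of the 5' end of each of the 50 genes, in order of promoter signal (distance in bp, negative upstream), with the thresholded list as circles whose area grows with signal, the ranked list as ticks and the gene as a grey bar. Most circles fall in an upstream column between -400 and -201 bp or near the end of the grey bar, and the genes without a promoter peak at the bottom have ticks and few circles.

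Many of these genes share their upstream region with a neighbour. Of the 35 promoter peaks, 12 were also within 500 bp of the 5' end of another protein-coding gene, and 6 were nearer to that gene. Of other promoter peaks, 208 of 1047 (19.9%) lay at 2 or more genes. Among the 12 strongest members the partners were K11H12.8 at rpl-15, Y17G9B.5 at rpl-20, set-21 at rpl-7A, lin-54, a DNA-binding subunit of the DREAM complex, at rpl-12, xrn-2 at rpl-43, C14B9.10 at rpl-21 and rps-14, a small-subunit protein, at rpl-36. Further shared peaks joined rpl-39 with rps-30, rpl-24.1 with rps-10, and rpl-9 with lpd-7, the worm pescadillo protein of large-subunit assembly, as well as rpl-22 with the securin ify-1 and rpl-5 with the collagen col-38. Non-coding RNA genes overlapped 6 of the 35 peaks, among them a snoRNA gene under the intronic peak of rpl-7. The share of other promoter peaks with such an overlap was not counted. Peaks were found with and without a divergent neighbour within 1000 bp. Of members with one, 15 of 29 had a peak (51.7%, other genes 13.9%), and of members with neither a divergent nor a close tandem neighbour, 12 of 16 had one (75%, other genes 3.22%).

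By chromosome, a peak was found at 9 of 17 members on I, 4 of 9 on II, 7 of 9 on III, 6 of 8 on IV, 2 of 5 on V and 1 of 2 on X. The share for other genes ran from 2.24% on X to 9.12% on III.

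Paralogous pairs gave unlike signals. rpl-11.1 and rpl-11.2 encode proteins of 196 residues that are 91.3% identical. Only rpl-11.2 had a thresholded promoter peak, and the candidate peak at rpl-11.1 had a signal of 42.2. Neither gene of the rpl-25 pair, 70.5% identical, had a promoter peak, with candidate signals of 24.6 at rpl-25.1 on X and 43.8 at rpl-25.2. The rpl-41 proteins are the same 22 residues, and the genes lie in tandem, and the upstream peak of rpl-41.2 stands 842 bp downstream of the 5' end of rpl-41.1, which had a candidate peak of 57.0. Both genes of the rpl-24 pair had a peak, 84.6 at rpl-24.1 and 246 at rpl-24.2, but these proteins are only 29.7% identical.

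The 21 members without a promoter peak in the thresholded list were not empty in the ranked one. Besides those already given they were rpl-16, rpl-13, rpl-36.A, rpl-33, rpl-28, rpl-42, rpl-34 and rpl-37. In the ranked list 47 of 50 members had some candidate peak, but so had 74.4% of all genes, and the exceptions were rla-2, rpl-26 and rpl-37. The highest candidate signals after rpl-1 were 75.7 at rpl-16, 58.4 at rpl-13, 57.0 at rpl-41.1, 50.6 at rla-0 and 48.0 at rpl-36.A. The lowest were 21.4 at rpl-19, whose 5' end stands 642 bp from the start codon, and 15.4 at rpl-34, and those of rpl-33, rpl-17, rpl-28 and rpl-42 ran from 33.3 to 42.8. The median of the 18 candidates was 42.0, against 30.0 for 13581 other genes without a thresholded peak, 81.1% of which were below that member median.

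Few members lay near the 500 bp limit. Taking the nearest summit of each gene, those just inside were at 464 bp for rpl-43, 444 bp for rpl-35 and 408 bp for rpl-36, while a second summit of rpl-38 lay at 498 bp. Just outside were rpl-13 at 660 bp, rpl-36.A at 818 bp and rpl-41.1 at 842 bp, all downstream of the 5' end.

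The short words of the sequences shown above were frequent under upstream member summits. Within 50 bp of the summit on either strand, CGAGTGT stood in 9 of 22 upstream member peaks (40.9%), against 1.71% of 701 upstream promoter peaks of genes that are not ribosomal proteins and 0.532% of windows of that length centred at -290 bp from the 5' end of all other genes. ACCGTA stood in 10 (45.5%), against 11.3% and 2.95%. GGGTCTC stood in 9 (40.9%), against 7.85% and 1.02%, and CTGAGTAT in 5 (22.7%), against 0.143% and 0.171%. At least 1 of the 4 was in 17 of the 22, against 17.3% of the 701, and in 0 of the 13 downstream member peaks. The 16 upstream peaks of small-subunit genes held at least 1 of them in 6 (37.5%), with ACCGTA in 4 (25%), CTGAGTAT in 3 (18.8%), CGAGTGT in 1 and GGGTCTC in 0. These words were picked for being common in the member peaks, so the members' shares describe the choice and support nothing.

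The picked words were also counted in the 500 bp upstream of every gene. Those regions overlap the member summit windows in which the words were seen and picked. The members' counts, and their split by promoter peak, therefore again describe the choice and support nothing. CGAGTGT was found at 10 of 29 members with a promoter peak and 2 of 21 without, and ACCGTA at 16 of 29 and 9 of 21, while these words were in 2.57% and 13.9% of such regions of all other genes. GGGTCTC was found at 12 of 29 and 6 of 21, and CTGAGTAT at 6 of 29 and 2 of 21, against 4.44% and 0.743% of other genes. The words were common at the 31 small-subunit genes too, with CGAGTGT at 5 (16.1%), ACCGTA at 11 (35.5%), GGGTCTC at 7 (22.6%) and CTGAGTAT at 5 (16.1%). Among the 1222 other genes with a peak the shares, in the same order, were 4.01%, 21.3%, 9.49% and 1.39%. Words that were not picked from the member sequences were also counted within 50 bp of the summits. CGCGACGC, the word that most marked the summits of other promoter peaks, stood in 1 of 35 member peaks, against 5.95% of 1026. CACGTG was in 1, CTGCGTCT in 1 and TTCCCGCC in 0, against 3.22%, 4.68% and 2.44% of the 1026. GAGAG was in 7 (20%, others 27.9%), and neither TATAA nor a run of T of the length searched (TTTTTT) was in any, against 7.02% and 20.1% of the others. Within 100 bp of the summit these values differed, with GAGAG in 16 of 35 (45.7%, others 41.7%), TTTTTT in 18 (51.4%, others 49.2%) and TATAA in 4 (11.4%, others 21.1%). Member summit windows had a median of 51.5% G and C, against 47.5% at other promoter peaks and 33.7% in the windows upstream of all other genes.

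Promoter peaks were also common at the genes of the small subunit and rare at those of the mitochondrial ribosome. Of 31 small-subunit genes (rps-), 21 had a peak (67.7%), also with a median place of -260 bp and with a median signal of 105, and 21 had a 3' summit. Of 41 genes for the large subunit of the mitochondrial ribosome (mrpl-), 3 had a promoter peak (7.32%), close to the 6.26% of all genes, and 2 had a 3' summit (4.88%). ubq-2, a large-subunit protein fused to ubiquitin and outside the naming rule, had a peak of 109 at -481 bp. Of 18 ribosome assembly genes found in the annotation, 4 had a peak, namely nol-10 with 685, nol-58 with 183, nol-56 with 101 and lpd-7, whose peak of 84.2 is the one shared with rpl-9.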

How the data were processed

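Chromatin immunoprecipitation of MADF-3 was measured in 2 biological replicates. The authors deposited peak lists on build ce11, per the file headers and labels. The signal of a peak is the peak caller's strength as deposited, the score a whole number up to 1000 that the authors made from the irreproducible discovery rate (IDR), and the −log10 of the IDR stands in the ranked lists as deposited, capped at 5. Not given in the sources used here were the aligner, the peak caller and the read depth. Thresholded lists held 2741 peaks (series-wide), 2631 (conservative), 962 (replicate 1) and 863 (replicate 2).

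From these, summits were placed 1-based and matched to Ensembl release 115 gene ends, with sequence from RefSeq WBcel235, in Python 3.11.15 with pandas 2.3.3, numpy 2.4.6, scipy 1.17.1 and Biopython 1.88. Replicate signals are the highest overlapping peak in each replicate's ranked list. No test was run, since there is 1 group. Intervals (95%) count peaks only. Protein identity came from translated coding sequences. The scripts were tested on simulated summits and planted words.

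Members, roles and lists were chosen with earlier results of these data known. Named by rule were the 12 strongest members, rla- genes, paralogue pairs, members on X, the 3 nearest the limit on each side, the 6 strongest candidates without a peak, members with no candidate, and genes sharing a peak with the 12. Genes named for their 3' summits were chosen after their values were seen.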

Additional observations from a re-analysis of the deposited data

How the results depend on the processing

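The windows, lists and replicates moved some values. With a window of 200 bp, 9 members had a promoter peak in place of 29, the upstream share was 33.3% in place of 62.9%, the median position was +110 bp in place of -260 bp, and 5 in place of 16 members had a peak in both replicates' lists. With 1000 bp the upstream share was 41.4% and the median position +183 bp, since that window also takes in summits past the 3' ends. Among the stronger peaks the upstream share was 80.8%. Leaving out a replicate gave 18 to 23 members with a promoter peak, an upstream share of 80 to 83.3% and a median signal of 62.5 to 87.3, in lists with a scale of their own. Within 100 bp of the 3' end 9 members had a summit in place of 33, against 1.27% of other genes. The single replicates' lists gave 20 and 21 members with a 3' summit, against 1.13% and 1.48% of other genes. For these results 29 values were within the limits set for a change and 13 moved beyond them. That +110 bp was counted among the 29, although it puts the median downstream of the 5' end in place of upstream. The 3' windows and the 4 sequence words were chosen after seeing the data. No paired analysis was possible because there is 1 group. Depth is unknown, and control libraries were not used here.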

Other observations

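The arrangement of CGAGTGT, 1 base and ACCGTA, chosen after it was seen in member peaks, occurs 30 times in the 6 nuclear chromosomes, counting both strands. Of the 30 sites, 9 lie within 500 bp of the 5' end of a large-subunit gene, and 4 more lie at small-subunit genes alone. Only 2 of the 30 have no protein-coding 5' end within 500 bp. The member sites from which the arrangement was chosen are among the 9, so that count describes the choice and supports nothing. A thresholded summit stood within 50 bp of 5 of the 9 sites at large-subunit genes, namely those of rpl-24.1, rpl-6, rpl-21, rpl-29 and rpl-11.2. The site at rpl-22 was just farther from its summit, and the sites at rpl-1, rpl-19 and rpl-34 are at genes with no thresholded promoter peak. Of the 15 sites at other protein-coding genes, 6 had a summit within 50 bp, the strongest a peak of 407 at eel-1. The word was thus not at every summit, nor a summit at every word.

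A longer form of the last word, CTGAGTAT followed after 2 bases by AACG, occurs 39 times. There are 6 sites at large-subunit genes, those of rpl-13, rpl-4, rpl-32, rpl-23, rpl-7A and rpl-39, and the last 3 have a summit within 50 bp. Another 4 are at small-subunit genes, 3 with a summit. Of the 22 sites farther than 500 bp from every protein-coding gene's 5' end, 6 had a summit, with signals up to 502. The words at members that were used to choose these forms are among those counted.

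Genes for translation elongation factors (eef-), a list picked after the 3' summits of the large-subunit genes were seen, had a 3' summit at 5 of 6 members, where 3.48% of all protein-coding genes had one.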
